A study of Homo sapiens with 6 samples.

Results

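The genes described here are 36 named interferon-induced and MHC class I genes, taken by symbol from the series table of hiPSC-CMs exposed to alcohol, with BST2 set beside the rest. The table lists 21134 genes and holds 35 of the 36, since OASL was not listed. Of these 35 genes, 26 had enough counts to be tested, among 14926 genes tested in all. RNA was sequenced from 6 libraries. The control group was 2 libraries of untreated hiPSC-CMs, the alcohol group 2 libraries of cells given 100-mM alcohol for 24 h, and the co-treated group 2 libraries of cells given 100-mM alcohol together with 1 μM losartan, an AT1R blocker, for 24 h. All 6 libraries came from cardiomyocytes of the line H9, which is an established line of human embryonic stem cells although the labels call the cells induced pluripotent. No library was given losartan alone, so an effect of losartan by itself cannot be told apart from its effect on cells given alcohol. Nothing says whether the 2 libraries of a group came from separate cultures, so p-values measure only the spread between these libraries.

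Interferons are secreted proteins, and those of type I are released by cells when their sensors meet viral nucleic acid. Type I interferon binds the receptor IFNAR1 and IFNAR2, and JAK kinases then activate transcription factors, STAT2 and IRF9 among them, that bind a DNA element called ISRE in the promoters of interferon-induced genes. The response to interferon gamma uses a second element, GAS. The induced genes include antiviral effectors such as the IFIT and MX proteins, the ubiquitin-like protein ISG15, and the machinery that loads peptides on MHC class I, the molecule that shows peptides to T cells. BST2, also called tetherin, is an interferon-induced membrane protein that holds budding viruses at the cell surface. Cardiomyocytes are known to express MHC class I at low levels.

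The promoters of 5 members are shown because the text below turns on them. They carry the same element and differ in how far the exposed libraries lie from control. Each is the 160 bases upstream of the start site in RefSeq (GRCh38.p14, the hg38 genome of the submitters' processing notes), read 5′ to 3′ on the strand of the gene, and capitals mark matches on either strand to the ISRE pattern, which was searched as GAAA, any 2 bases and GAAA again.
BST2 (chr19:17405631-17405790, minus strand): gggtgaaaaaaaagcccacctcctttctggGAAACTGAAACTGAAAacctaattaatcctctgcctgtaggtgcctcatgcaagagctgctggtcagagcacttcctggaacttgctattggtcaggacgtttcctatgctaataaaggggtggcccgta
IFIT1 (chr10:89392463-89392622, plus strand): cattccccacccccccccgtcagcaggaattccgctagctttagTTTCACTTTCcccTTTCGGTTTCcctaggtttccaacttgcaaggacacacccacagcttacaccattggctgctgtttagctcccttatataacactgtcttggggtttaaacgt
TAPBP (chr6:33314079-33314238, minus strand): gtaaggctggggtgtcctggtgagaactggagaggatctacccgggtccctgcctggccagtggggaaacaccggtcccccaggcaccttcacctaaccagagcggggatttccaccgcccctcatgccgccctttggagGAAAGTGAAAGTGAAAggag
ISG15 (chr1:1013337-1013496, plus strand): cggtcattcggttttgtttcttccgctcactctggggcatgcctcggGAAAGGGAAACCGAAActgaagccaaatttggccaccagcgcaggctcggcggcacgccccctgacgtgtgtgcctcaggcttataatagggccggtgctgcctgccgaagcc
B2M (chr15:44711357-44711516, plus strand): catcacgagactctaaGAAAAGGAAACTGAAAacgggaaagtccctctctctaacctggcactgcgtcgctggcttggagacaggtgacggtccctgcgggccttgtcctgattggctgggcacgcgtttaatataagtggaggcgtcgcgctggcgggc
In BST2, 2 matches overlap and cover 16 bases, from −130 to −115 relative to the start. BST2 also holds 2 matches to the GAS pattern TTCNNNGAA, at −136 to −128, which shares bases with the first ISRE match, and at −58 to −50. IFIT1 has 2 separate ISRE matches on the opposite strand, at −116 to −107 and at −103 to −94. ISG15, TAPBP and B2M each have 2 overlapping ISRE matches, and those of TAPBP lie closest to the start, the nearer one at −14 to −5.

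A promoter of 250 bases before to 50 bases after the start was found in RefSeq for 29 of the 35 listed members. The ISRE pattern was present for 21 of these 29 genes (72.4%), against 4.38% of all 27305 genes with a promoter and 3.57% of all 35116 promoters. The GAS pattern was present for 9 of 29 (31.0%), against 9.38% of all genes and 7.66% of all promoters. DDX58, STAT2, UBE2L6, IFI35, IRF1, IRF9, HLA-B and HLA-C had no ISRE match in this window, and IFI35, IRF1 and IRF9 had a GAS match instead. The members were picked as interferon-induced and MHC class I genes, so high shares follow from that choice and are no separate result. A match is a description of these letters only. Of the 21 genes with an ISRE match, 14 were tested, and their median log2 fold change from control was 0.17 in alcohol (−0.54 to 1.11). The 8 genes with no match were all tested, and their median was 0.14 (−0.05 to 0.97). The ranges of log2 fold changes overlapped along most of their length. The other genes with a match had too few counts to be tested, and the sets were not compared by a test. These values therefore do not show whether the sets differ.

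**Figure D1:**
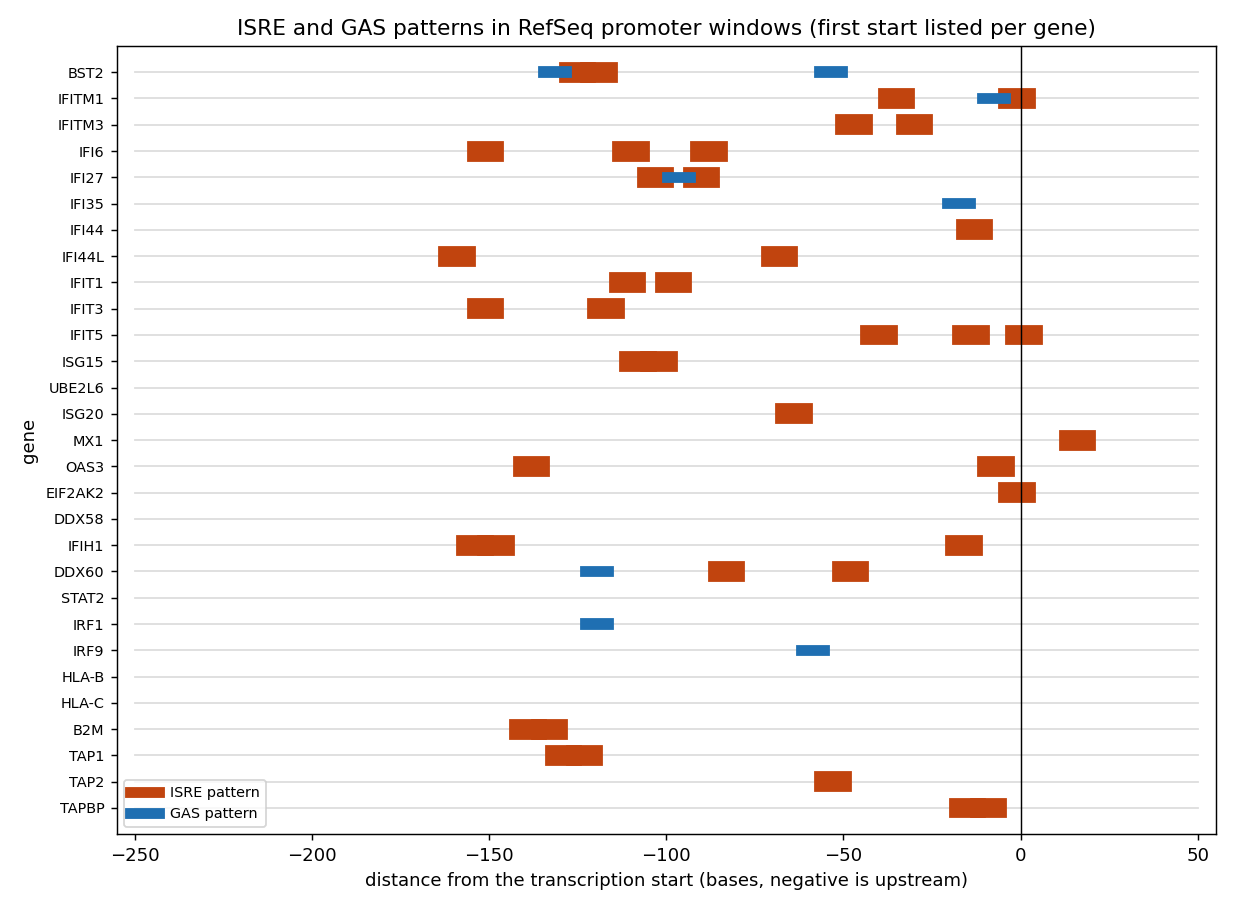
Positions of the ISRE and GAS patterns in the promoter windows of the 29 members with a RefSeq promoter, as distance in bases from the first start site listed (negative is upstream). Red blocks are ISRE and blue blocks GAS matches. ISRE matches appear for 21 of the 29 genes, and most lie upstream of the start.

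In hiPSC-CMs these genes spanned a wide range of levels. Levels are given as FPKM, the authors' expected count scaled by transcript length and library size. B2M, the light chain of MHC class I, and IFITM3, a membrane protein that blocks viral entry, were above 100 FPKM in every library. In all, 11 members exceeded 10 FPKM in every library, 9 lay between 1 and 10 FPKM, and 9 stayed under 1 FPKM. The 9 listed members that were not tested were IFI27, IFI44, IFI44L, IFIT2, ISG20, MX1, OAS3, IFIH1 and IRF7, with counts of 0 to 9 per library and at most 1.88 FPKM. MX1, which most cell types make strongly under interferon, had 0 or 1 count in each library. With a library total of 4898287 to 5051448 expected counts, a count of 0 still allows up to 3 counts, and this limit covers counting error only.

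**Figure D2:**
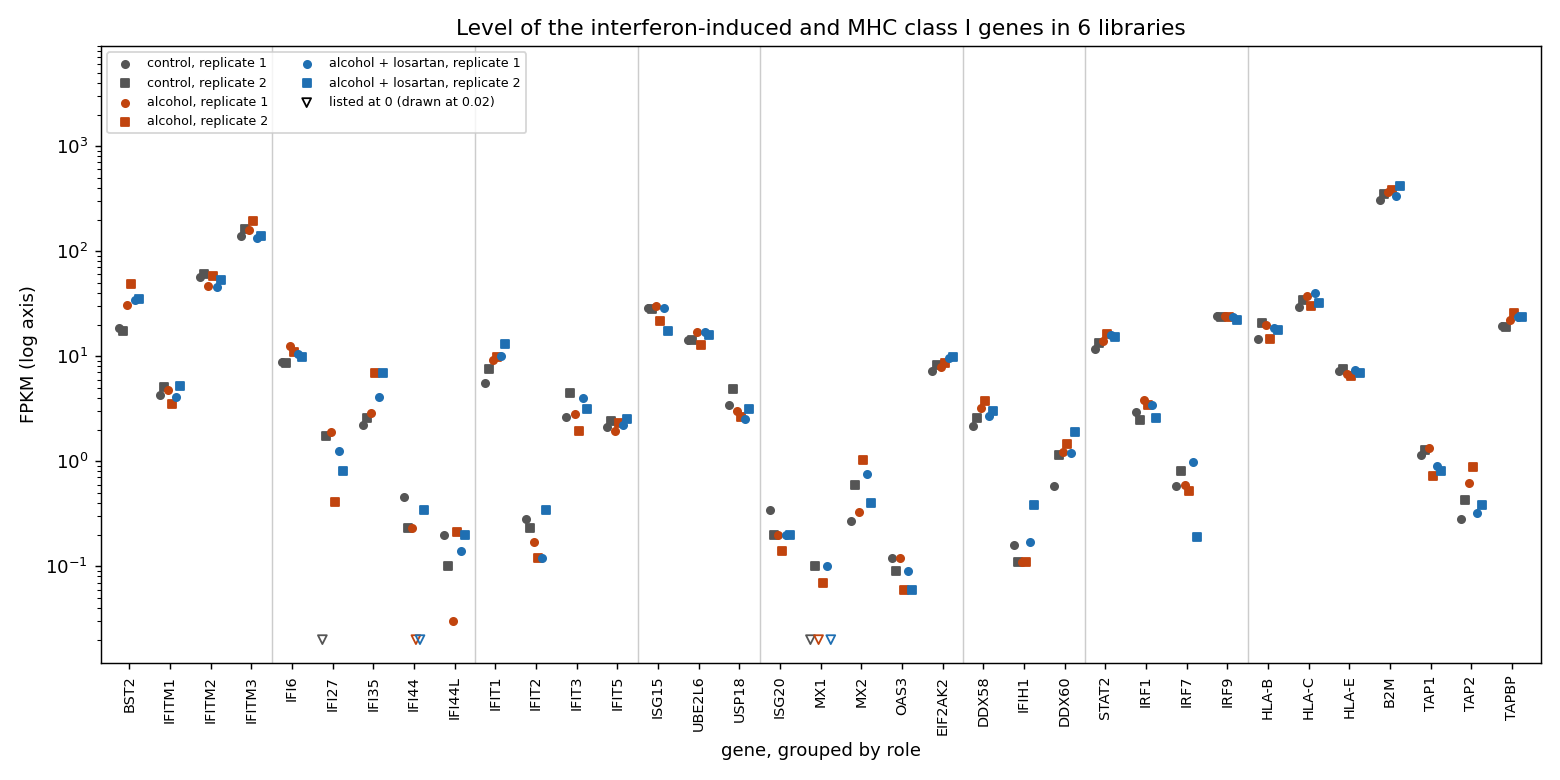
FPKM on a log axis for the 35 listed members in each of the 6 libraries, grouped by role. Circles and squares are replicates 1 and 2, colours are groups, and open triangles mark a library listed at 0. B2M and IFITM3 sit above 100 FPKM in every library, and BST2 is the member whose exposed libraries lie most clearly above its controls.

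The cells expressed cardiomyocyte genes, with 14 of 14 cardiomyocyte markers above 1 FPKM in every library. Their summed level was 30487 and 29197 FPKM in control, 28861 and 20824 in alcohol, and 24211 and 25886 in co-treated libraries, so it was lowest in alcohol replicate 2. MYL7 dominated this sum, at 14512 and 16180 FPKM in control and 9321 FPKM in alcohol replicate 2. In alcohol against control 7 of the 14 markers were higher and 7 lower. In co-treated cells against control 4 were higher and 10 lower, with a median log2 fold change of −0.23. At an unadjusted p under 0.05 by edgeR there were 2 in alcohol, both lower, beside 11.0% of all genes. In co-treated cells there were 6, of which 1 was higher and 5 lower, beside 12.6% of all genes. Of the 14, edgeR called 0 in both, and DESeq2 called 0 in alcohol and 1 in co-treated cells. MYH6, TNNI1 and NKX2-5 were highest in alcohol replicate 2, at 737, 353 and 151 FPKM. MYL7 was lowest in that library, as were MYL2 (821 FPKM), MYL3 (1178), ACTC1 (889), ACTN2 (323), TNNI3 (433) and TTN (148). Of 10 leukocyte markers, CD3E and ITGAM were not listed, and the summed level of the list was 27.0 to 29.4 FPKM in control, 25.7 to 28.7 in alcohol and 28.7 to 34.3 in co-treated libraries. LYZ dominated this sum, at 22.6 to 30.2 FPKM over the 6 libraries. The 10 endothelial markers summed to 22.4 to 23.5, 23.6 to 23.7 and 20.5 to 27.6 FPKM in the order control, alcohol and co-treated. EGFL7 was the largest part of this sum, at 9.17 to 17.7 FPKM. Of 6 endothelial markers tested, 2 were higher and 4 lower in alcohol against control, and 3 and 3 in co-treated cells. KDR was 4.00 and 3.70, 5.18 and 6.53, and 6.67 and 7.70 FPKM in the same order. The 10 fibroblast markers summed to 426 to 470, 486 to 519 and 472 to 521 FPKM, and the 10 endoderm markers to 42.8 to 44.4, 54.7 to 59.5 and 54.5 to 58.0 FPKM. The sums of both these lists were higher in all 4 exposed libraries, though their members were mixed. Of 9 fibroblast markers tested, 5 were higher and 4 lower in alcohol against control, and 6 and 3 in co-treated cells. Of 5 endoderm markers tested, 3 were higher and 2 lower in alcohol, and 4 and 1 in co-treated cells. The fibroblast sum of co-treated replicate 2 (471.5 FPKM) was close to that of control replicate 1 (469.6 FPKM). The part of these lists in the results below was not tested. In bulk RNA, a larger share of cells of 1 type and more RNA per cell cannot be told apart.

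The first comparison asked what 100-mM alcohol did to these genes. BST2 was the member furthest from its controls. Its level was 18.7 and 17.2 FPKM in the control libraries, 30.8 and 49.0 FPKM in the alcohol libraries, and 33.97 and 35.2 FPKM in the co-treated libraries, from counts of 97 and 89, 160 and 247, and 171 and 182. Both alcohol libraries lay above both controls, and they differed from each other more than the controls did (39.9 ± 12.9 FPKM against 17.9 ± 1.05 FPKM, SD, n = 2). BST2 lies at chr19:17402939-17405630 in GRCh38.p14, no annotated gene overlaps it, and its expected counts were whole numbers in all 6 libraries.

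In alcohol against control, BST2 was 2.15-fold higher (log2 fold change 1.11, SE 0.20, 95% confidence interval 0.67 to 1.54), with an unadjusted p of 0.000106 and an adjusted p of 0.0658 by edgeR's quasi-likelihood test. It ranked 24 of 14926 genes by p and did not pass the threshold of 0.05. DESeq2 gave it an adjusted p of 0.0166, and over the 15 alternatives the adjusted p by edgeR, DESeq2 or limma ran from 0.00345 to 0.471. The size rested in part on alcohol replicate 2. Without that library the log2 fold change was 0.78 (adjusted p = 0.471 by edgeR), and without alcohol replicate 1 it was 1.38 (adjusted p = 0.00345 by edgeR). Alcohol replicate 2 also had the lowest summed level of cardiomyocyte markers. MYL7, which dominated this sum, was lowest in that library, as were MYL2, MYL3, ACTC1, ACTN2, TNNI3 and TTN. Fewer markers, MYH6 and TNNI1 among them, were highest in that library. The part of these marker levels in the BST2 value was not tested.

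Among the 26 members tested, edgeR called 0 in alcohol against control, beside 0.0670% of all genes (10 genes). DESeq2 called 1 of the 13 members for which it gave an adjusted p, which was BST2, beside 0.839% of the genes it gave one. limma on log2(FPKM + 1) and on log2(FPKM + 0.1) called 0. At an unadjusted p under 0.05 by edgeR there were 4 members, all of them higher (BST2, IFIT1, DDX58 and TAPBP), where 11.0% of all genes reached that level and 5.27% did so with a higher value. Of the 26, 16 were higher and 10 lower, and the median log2 fold change was 0.11, beside −0.0033 over all genes. Over all 35 listed members the median was −0.022 by DESeq2 and −0.0072 by edgeR with no filter on low counts. Without BST2 the median of the tested members was 0.07. A positive log2 fold change was seen for 49.4% of all genes. Both alcohol libraries lay above both controls in FPKM for 11 of the 26 members (24.7% of all genes) and below them for 2 (17.7% of all genes).

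Co-treated libraries were compared with control next. The 2 comparisons share the control libraries, so their values are set side by side and no overlap is read from them. BST2 was 1.87-fold higher in co-treated cells (log2 fold change 0.90, SE 0.20, 95% confidence interval 0.46 to 1.34), with an unadjusted p of 0.000701 and an adjusted p of 0.0787 by edgeR (0.0874 by DESeq2). The 2 co-treated libraries were close together, at 34.6 ± 0.884 FPKM (SD, n = 2). BST2 passed when alcohol replicate 1 (adjusted p = 0.0225 by edgeR) or alcohol replicate 2 (adjusted p = 0.0268 by edgeR) was left out of the fit, neither of which is in this comparison.

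Of the 26 members, edgeR, DESeq2 and both limma fits called 0 in co-treated against control, beside 0.362% of all genes called by edgeR (54 genes) and 0.899% by DESeq2. At an unadjusted p under 0.05 by edgeR there were 3, all higher (BST2, IFIT1 and IFI35), beside 12.6% of all genes and 6.26% with a higher value. Again 16 members were higher and 10 lower, with a median log2 fold change of 0.12 beside −0.0017 over all genes, of which 49.8% were higher. Over all 35 listed members the median was 0.0016 by DESeq2 and 0.0032 by edgeR with no filter, and over the 26 tested it was −0.020 without control replicate 1. Both co-treated libraries lay above both controls for 10 members (27.1% of all genes) and below them for 4 (16.3% of all genes).

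The FPKM of all 4 alcohol-exposed libraries lay above both controls for 8 of the 26 members tested, namely BST2, DDX58, DDX60, IFI35, IFI6, IFIT1, STAT2 and TAPBP. The same was true of 14.8% of all genes tested. All 4 lay below both controls for 1 member, USP18, and for 8.39% of all genes.

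**Figure D3:**
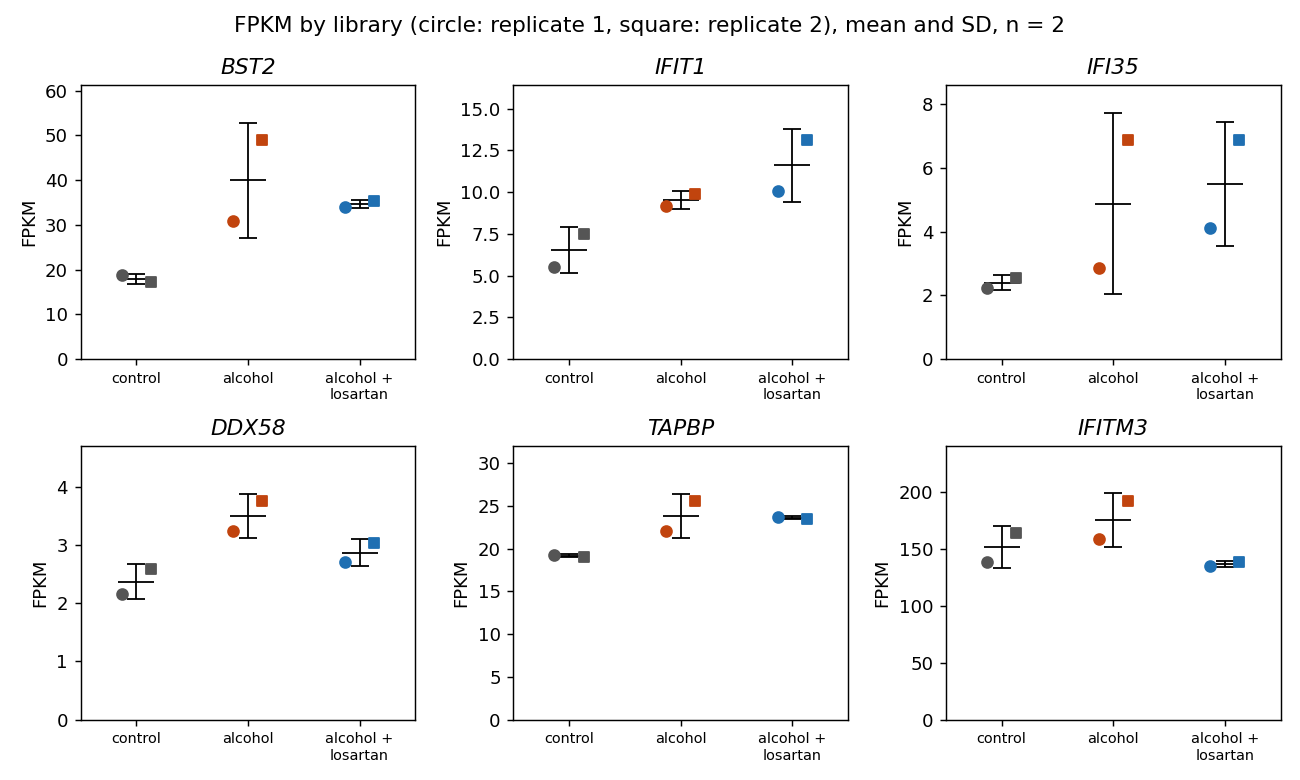
FPKM in each library, on axes from 0, for the 6 members with an unadjusted p under 0.05 in at least 1 comparison. Horizontal bars are group means, error bars are SD (n = 2), circles are replicate 1 and squares replicate 2. All 4 exposed libraries exceed both controls for BST2, IFIT1, IFI35, DDX58 and TAPBP, while the IFITM3 groups overlap except for co-treated below alcohol.

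Beside BST2 at the cell membrane stand the IFITM proteins, which block viruses as they fuse with the cell. IFITM3 was 138 and 164 FPKM in control, 158 and 192 FPKM in alcohol, and 135 and 138 FPKM in co-treated libraries. Its alcohol and control libraries overlapped. IFITM2 was 57.1 and 60.5, 46.4 and 58.4, and 45.2 and 53.7 FPKM in the same order, and IFITM1 was between 3.53 and 5.18 FPKM in all 6. The log2 fold changes of these 3 genes from control lay between −0.29 and 0.17 in both comparisons. IFITM1, IFITM2 and IFITM3 are close paralogs whose expected counts were split by estimation, so their separate values are uncertain.

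IFIT proteins bind viral RNA that lacks the cap structure of the host. IFIT1 was 5.54 and 7.49 FPKM in control, 9.15 and 9.90 FPKM in alcohol, and 10.1 and 13.1 FPKM in co-treated libraries. All exposed libraries lay above both controls, and the 2 co-treated libraries lay above both alcohol libraries. In alcohol its log2 fold change from control was 0.50 (SE 0.18, unadjusted p = 0.0165, adjusted p = 0.322 by edgeR). In co-treated cells it was 0.78 (SE 0.18, 95% confidence interval 0.39 to 1.17, unadjusted p = 0.000772, adjusted p = 0.0823 by edgeR and 0.0969 by DESeq2). The other IFIT genes did not share this pattern. IFIT3 was 2.61 and 4.45 FPKM in control, 2.79 and 1.96 FPKM in alcohol, and 3.96 and 3.15 FPKM in co-treated libraries. IFIT5 stayed between 1.95 and 2.55 FPKM, and IFIT2 was not tested. All 4 IFIT genes overlap the annotated span of LIPA, a lysosomal lipase gene of the other strand, and nothing states that the counting used strand. LIPA had log2 fold changes from control of 0.25 in alcohol (unadjusted p = 0.231) and 0.46 in co-treated cells (unadjusted p = 0.0342, adjusted p = 0.343 by edgeR), and its part in the IFIT1 value was not tested.

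The IFI genes are named for their induction and share no single function. IFI35, a cytoplasmic protein that modulates innate signalling, was 2.23 and 2.56 FPKM in control, 2.87 and 6.89 FPKM in alcohol, and 4.11 and 6.88 FPKM in co-treated libraries, from 14 to 43 counts. Replicate 2 was the higher library in each group. Its log2 fold change from control was 1.15 in co-treated cells (SE 0.46, unadjusted p = 0.0257, adjusted p = 0.313 by edgeR) and 0.97 in alcohol (95% confidence interval −0.03 to 1.97). Without co-treated replicate 2 the co-treated value was 0.71 (unadjusted p = 0.242, adjusted p = 0.756 by edgeR), and without co-treated replicate 1 it was 1.49. IFI6, a mitochondrial and endoplasmic reticulum protein that counters apoptosis, was 8.75 and 8.55 FPKM in control, 12.4 and 10.98 FPKM in alcohol, and 10.6 and 9.79 FPKM in co-treated libraries. Its groups did not overlap, but the fold change from control did not pass in either comparison (unadjusted p = 0.170 in alcohol and 0.522 in co-treated cells by edgeR).

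ISG15 is joined to other proteins by the enzyme UBE2L6 and removed by USP18, which also dampens interferon receptor signalling. ISG15, among the most inducible genes of this pathway in other cells, was 28.5 and 28.0 FPKM in control, 30.0 and 21.7 FPKM in alcohol, and 28.8 and 17.5 FPKM in co-treated libraries. One exposed library in each group was near the controls and the other below them. The log2 fold change of ISG15 from control was −0.16 in alcohol (95% confidence interval −0.71 to 0.39) and −0.34 in co-treated cells (−0.89 to 0.22). UBE2L6 lay between 12.6 and 17.1 FPKM. USP18 was 3.41 and 4.88 FPKM in control and between 2.51 and 3.13 FPKM in the 4 exposed libraries, with log2 fold changes of −0.59 in alcohol (unadjusted p = 0.0898) and −0.60 in co-treated cells (unadjusted p = 0.0877) by edgeR.

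EIF2AK2, the kinase PKR that halts translation on meeting double-stranded RNA, was 7.21 and 8.16 FPKM in control, 7.83 and 8.62 FPKM in alcohol, and 9.51 and 9.89 FPKM in co-treated libraries. The co-treated libraries lay above all others, with a log2 fold change from control of 0.30 (95% confidence interval −0.02 to 0.62). EIF2AK2 overlaps GPATCH11 in the annotation. GPATCH11 had log2 fold changes from control of −0.44 in alcohol (unadjusted p = 0.0374, adjusted p = 0.413 by edgeR) and −0.07 in co-treated cells. The part of shared reads was not tested. MX2, which blocks retroviral import into the nucleus, was 0.27 to 1.03 FPKM from 4 to 15 counts, and the interval of its log2 fold change in alcohol (−0.93 to 2.11) is wide enough to hold the value of BST2.

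DDX58, the cytoplasmic RNA sensor RIG-I, was 2.16 and 2.58 FPKM in control, 3.23 and 3.76 FPKM in alcohol, and 2.70 and 3.03 FPKM in co-treated libraries. Its alcohol libraries were the highest of the 6. The log2 fold change was 0.52 in alcohol against control (SE 0.22, 95% confidence interval 0.04 to 1.00, unadjusted p = 0.0356, adjusted p = 0.408 by edgeR). DDX60, which promotes RIG-I signalling, was 0.58 and 1.14 FPKM in control and 1.19 to 1.88 FPKM in the exposed libraries, and IFIH1, the sensor MDA5, had 2 to 7 counts.

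None of the 3 transcription factors tested reached an unadjusted p under 0.05 in any comparison. IRF9 was 24.1 and 23.9 FPKM in control, 24.4 and 23.8 FPKM in alcohol, and 23.4 and 22.3 FPKM in co-treated libraries. STAT2 was 11.6 and 13.5, 13.98 and 16.3, and 16.04 and 15.1 FPKM in the same order. Against control it had a log2 fold change of 0.23 in alcohol (unadjusted p = 0.108) and 0.27 in co-treated cells (unadjusted p = 0.0622) by edgeR. IRF1, the early factor of the interferon gamma response, was 2.93 and 2.48 FPKM in control, 3.80 and 3.40 FPKM in alcohol, and 3.40 and 2.58 FPKM in co-treated libraries. Both alcohol libraries lay above both controls, and the co-treated libraries overlapped both other groups. IRF7, which amplifies type I interferon, was under 1 FPKM throughout.

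MHC class I consists of a heavy chain and B2M, and it is loaded with peptides that TAP1 and TAP2 carry into the endoplasmic reticulum and TAPBP (tapasin) helps to select. B2M was 306 and 350 FPKM in control, 367 and 385 FPKM in alcohol, and 333 and 416 FPKM in co-treated libraries. Against control B2M had a log2 fold change of 0.16 in alcohol (95% confidence interval −0.13 to 0.45) and 0.15 in co-treated cells (−0.15 to 0.44). Among heavy chains HLA-C was 29.2 to 40.4 FPKM and HLA-B 14.6 to 20.6 FPKM, each with overlapping groups in all 3 comparisons. HLA-E was 7.30 and 7.56 FPKM in control, 6.70 and 6.49 FPKM in alcohol, and 7.36 and 6.96 FPKM in co-treated libraries. Its alcohol libraries were the lowest of the 6, with a log2 fold change from control of −0.21 (unadjusted p = 0.278 by edgeR). The HLA heavy chain genes are related in sequence, and their expected counts were not all whole numbers, so the split of reads between them is uncertain. The ratio of B2M to the summed FPKM of these 3 heavy chains was 5.98 and 5.59 in control, 5.73 and 7.49 in alcohol, and 5.02 and 7.37 in co-treated libraries. The transporters were low, with TAP1 at 0.73 to 1.33 FPKM and TAP2 at 0.28 to 0.88 FPKM.

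TAPBP was 19.3 and 19.02 FPKM in control, 22.03 and 25.6 FPKM in alcohol, and 23.7 and 23.5 FPKM in co-treated libraries. The 4 exposed libraries lay above both controls by a small step. The log2 fold change was 0.28 in alcohol against control (SE 0.12, 95% confidence interval 0.02 to 0.54, unadjusted p = 0.0368, adjusted p = 0.413 by edgeR) and 0.25 in co-treated cells (unadjusted p = 0.0535). TAPBP overlaps RGL2 in the annotation. RGL2 had log2 fold changes of 0.42 in alcohol (unadjusted p = 0.00998, adjusted p = 0.273 by edgeR) and 0.35 in co-treated cells (unadjusted p = 0.0274), and the part of shared reads was not tested.

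**Figure D4:**
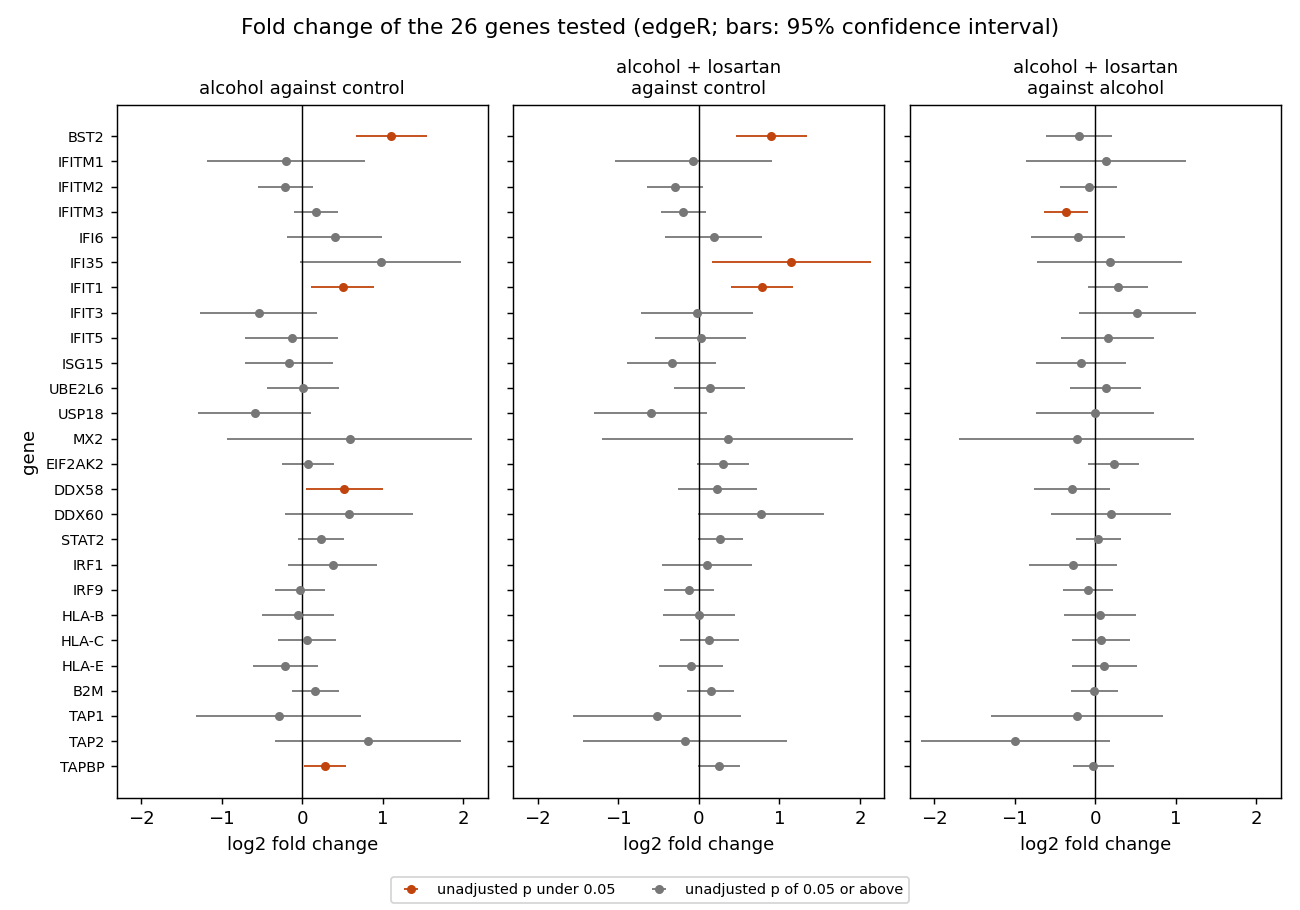
Log2 fold change with 95% confidence interval (edgeR) for the 26 members tested in the 3 comparisons, with genes at an unadjusted p under 0.05 in red. BST2 is at 1.11 and 0.90 against control and at −0.21 between the exposed groups, and most other members have intervals that include 0.

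Whether losartan altered these genes in cells given alcohol was read from co-treated against alcohol. For BST2 the log2 fold change was −0.21 (SE 0.19, 95% confidence interval −0.62 to 0.20, unadjusted p = 0.298, adjusted p = 0.945 by edgeR). Both co-treated libraries lay between the 2 alcohol libraries. Without alcohol replicate 2 the value turned to 0.12, so its direction rested on that library, and the interval does not show that BST2 was equal in the exposed groups. Of the 26 members, edgeR, DESeq2 and both limma fits called 0, beside 0.0134% of all genes called by edgeR (2 genes) and 0.0237% by DESeq2. At an unadjusted p under 0.05 by edgeR there was 1, IFITM3, which was lower with a log2 fold change of −0.36 (SE 0.13, 95% confidence interval −0.64 to −0.09, unadjusted p = 0.0137, adjusted p = 0.836), where 5.55% of all genes reached that level and 2.71% did so with a lower value. There were 12 members higher and 14 lower, beside 50.3% of all genes higher, and the median log2 fold change was −0.0080. Both co-treated libraries lay above both alcohol libraries for 4 members (18.0% of all genes) and below them for 5 (14.3% of all genes).

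The rest of the pathway was read from lists of genes that were not members. Of 21 interferon genes, IFNW1 was listed, with 1 count in alcohol replicate 2 and 0 in the other libraries. IFNB1, IFNG and the interferon alpha genes were not listed. The receptor chains were present, with IFNAR1 at 7.75 to 10.49 FPKM and IFNAR2 at 4.96 to 7.33 FPKM.

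Of the 14 receptor and JAK-STAT genes tested, edgeR called 0 in any comparison. STAT3, which transmits interleukin 6 signals as well as some interferon signals, was 31.7 and 32.1 FPKM in control, 39.0 and 44.9 FPKM in alcohol, and 45.9 and 45.6 FPKM in co-treated libraries. Its log2 fold change from control was 0.36 in alcohol (SE 0.11, unadjusted p = 0.00730, adjusted p = 0.252 by edgeR) and 0.48 in co-treated cells (SE 0.11, unadjusted p = 0.000977, adjusted p = 0.0885 by edgeR), where DESeq2 called it (adjusted p = 0.0468) and no other gene of this list. JAK1 reached an unadjusted p of 0.0425 in co-treated cells (log2 fold change 0.27). At an unadjusted p under 0.05 by edgeR, this list held 1 gene in alcohol and 2 in co-treated cells against control. The shares of all genes were 11.0% and 12.6%.

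In the list of other interferon-induced genes, 33 of 46 were tested, edgeR and DESeq2 called 0, and the median log2 fold change was 0.03 in alcohol and 0.06 in co-treated cells. LGALS3BP, a secreted glycoprotein, was 46.4 and 46.2 FPKM in control, 64.2 and 65.9 FPKM in alcohol, and 69.5 and 60.8 FPKM in co-treated libraries. Against control LGALS3BP had a log2 fold change of 0.45 in both (unadjusted p = 0.00185 and 0.00204, adjusted p = 0.168 and 0.120 by edgeR). HERC6 (log2 fold change 0.65) and PARP14 (0.59) also reached an unadjusted p under 0.05 in alcohol, as did GBP2 (0.62) and TRIM5 (−0.35) in co-treated cells. With LGALS3BP this made 3 of the 33 in alcohol and 3 in co-treated cells against control, beside 11.0% and 12.6% of all genes. CXCL10, a chemokine strongly induced by interferon gamma, had at most 0.16 FPKM.

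Among 17 nucleic acid sensing genes tested, edgeR called 0. TBK1, the kinase that activates IRF3, was 6.68 and 7.53 FPKM in control, 8.21 and 7.08 FPKM in alcohol, and 10.6 and 11.1 FPKM in co-treated libraries. Its log2 fold change was 0.56 in co-treated cells against control (unadjusted p = 0.00648, adjusted p = 0.192 by edgeR) and 0.49 against alcohol (unadjusted p = 0.0136). TRAF3, an adaptor upstream of TBK1, had −0.47 and −0.45 in the same comparisons (unadjusted p = 0.0165 and 0.0203). At an unadjusted p under 0.05 by edgeR, there were 2 of the 17 in each of these comparisons, beside 12.6% and 5.55% of all genes. In alcohol against control there were 0, beside 11.0% of all genes.

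Among 15 other genes of MHC class I presentation tested, edgeR and DESeq2 called 0. MICA, a stress-induced ligand of natural killer cells, was 16.01 and 15.2 FPKM in control, 11.5 and 8.09 FPKM in alcohol, and 13.6 and 14.3 FPKM in co-treated libraries. Its log2 fold change was −0.65 in alcohol against control (SE 0.20, unadjusted p = 0.00679, adjusted p = 0.247 by edgeR) and 0.48 in co-treated against alcohol (unadjusted p = 0.0342, adjusted p = 0.882 by edgeR). PSME1, a proteasome activator subunit, had a log2 fold change from control of 0.28 in both exposed groups (unadjusted p = 0.0430 and 0.0470). ERAP1, which trims peptides for class I, had 0.38 in co-treated cells (unadjusted p = 0.0284). At an unadjusted p under 0.05 by edgeR, there were 2 of the 15 in alcohol and 2 in co-treated cells against control. In co-treated against alcohol there was 1. The shares of all genes were 11.0%, 12.6% and 5.55%. Of the immunoproteasome subunits, PSMB8 and PSMB9 were under 1 FPKM in every library, while PSMB10 was 9.35 to 11.1 FPKM. Of 7 MHC class II genes tested, edgeR and DESeq2 called 0 and 0 reached an unadjusted p under 0.05 by edgeR, and HLA-DRA was not listed.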

How the data were processed

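RNA-seq of 6 hiPSC-CM libraries was analysed. For each library the deposited values are the authors' expected counts and FPKM per gene. The submitters' processing notes name HISAT2 2.0.4, Bowtie2 2.2.5, RSEM 1.2.12 and hg38. The deposited expected counts are RSEM-type estimates (33.9% of those above 0 are not whole) and were rounded, and the deposited FPKM was used for levels. Libraries held 4898287 to 5051448 expected counts, so genes with few counts are imprecise. Whether counting used strand is not given in the sources used here. A gene missing from a library's table was given a value of 0.

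The main test was edgeR 4.0.16's quasi-likelihood F test, two-sided, fitted to the 6 libraries together after TMM and filterByExpr. The p-values of 14926 genes were adjusted by Benjamini-Hochberg, and a gene was called at an adjusted p under 0.05. The 95% confidence intervals use the standard error of this fit. An exact permutation test of 2 libraries against 2 cannot go below p = 0.333. The 15 alternatives were each of the 6 libraries left out, only the groups compared, a replicate block, no filter, a minimum of 10 counts per library, scaling by library size only, size factors of the DESeq2 type in edgeR, DESeq2 1.42.0 itself, and limma 3.58.1 on FPKM with a pseudocount of 1 or 0.1 on the log2 scale. R 4.3.3 and Python 3.11.15 were used, and the scripts were tested on simulated data.

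The 36 members, the lists and the tests were chosen with earlier results of these data known. Full statistics are given for BST2 and for members with an unadjusted p under 0.05, and values per library also for the member with the highest FPKM of each role. Genes of the other lists are named at an unadjusted p under 0.05 or for a defining role, and other names were chosen after their values were seen. Of 35 listed members 29 matched a RefSeq promoter. DDX58 is RIGI in RefSeq. Some genes of the lists are not reported here.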

Additional observations from a re-analysis of the deposited data

How the results depend on the processing

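BST2 kept a positive log2 fold change from control under all 15 alternatives in both comparisons. In alcohol against control it was called under DESeq2 (adjusted p = 0.0166), with at least 10 counts in every library (adjusted p = 0.0488 by edgeR) and without alcohol replicate 1. In co-treated against control it was called with only the groups compared (adjusted p = 0.0273 by edgeR) and without either alcohol library. BST2 in co-treated against alcohol turned to 0.12 without alcohol replicate 2 and ranged from −0.48 to 0.12 with each library left out. The cause of these shifts was not tested.

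The number of genes called among all genes depended on the setting. In alcohol against control it was 10, and it was 74 under DESeq2, 0 and 2 under limma with a pseudocount of 1 and 0.1, 22 with library size only, 2 with no filter, 26 with at least 10 counts in every library and 3 with only the groups compared. In co-treated against control it was 54, and it was 116 under DESeq2, 2 and 3 under limma, 15 with no filter and 158 with only the groups compared. In co-treated against alcohol it was 2, and it was 5 under DESeq2, 1 under limma with a pseudocount of 1, 1 with no filter, 0 with at least 10 counts and 4 with only the groups compared. Members called were 1 under DESeq2 and 1 with at least 10 counts in alcohol, and 1 with only the groups compared in co-treated cells. Members at an unadjusted p under 0.05 were 2 under DESeq2 in alcohol, and 7 with library size only and 5 with at least 10 counts in co-treated cells. The median of the members in alcohol was −0.022 under DESeq2, which took in all 35 listed members.

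With each library left out, the genes called ranged from 1 to 220 in alcohol against control, from 2 to 184 in co-treated against control and from 1 to 24 between the exposed groups. Members called ranged from 0 to 1, 0 to 1 and 0 to 0 in that order, members at an unadjusted p under 0.05 from 1 to 5, 2 to 6 and 0 to 3, and the median of the members from 0.055 to 0.235, −0.020 to 0.193 and −0.058 to 0.025. A group left with 1 library was assumed to vary like the others.

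The replicate numbers were not shown to pair the libraries: deviations from the group means correlated at 0.11 between control and alcohol, −0.02 between control and co-treated and 0.04 between alcohol and co-treated across genes. With the replicate number as a block, the genes called were 48, 136 and 5 in the 3 comparisons. The block called 1 member in alcohol (BST2, log2 fold change 1.09, adjusted p = 0.0346 by edgeR) and 1 in co-treated cells against control (IFIT1, log2 fold change 0.78, adjusted p = 0.0371 by edgeR). Depth limits the 9 members not tested, which had at most 9 counts.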
